A study of Mus musculus with 32 samples.

Results

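Granulocyte-macrophage progenitors (GMPs) and common lymphoid progenitors (CLPs) from aged mice were compared by RNA sequencing. The 4 libraries with these labels, 2 of aged GMPs and 2 of aged CLPs, were taken from the 32 libraries of the series, which cover 8 bone marrow fractions at 2 ages. All mice were female C57BL/6 without a transgene or treatment named in the labels, 20 months old for the aged and 10 weeks old for the young groups. GMPs were sorted as lineage-negative, IL-7-negative, Sca-1-negative, c-Kit-positive cells that carried FcγR and CD34. CLPs were sorted as lineage-negative, IL-7-positive cells with low Sca-1 and low c-Kit, where IL-7 in the labels stands for the receptor chain IL-7Rα in the study's methods. Marrow cells were pooled and each fraction sorted in duplicate, and it was not stated whether both duplicates of a fraction came from the same pool. The p-values given here measure the spread between such duplicates, which may be technical. Unless stated otherwise, that spread was estimated over all groups of the series together and not from the aged GMP and CLP duplicates alone. The young GMP and CLP libraries (4) and the aged libraries of the multipotent progenitor (MPP) fractions MPP3 and MPP4 (4) served for comparison.

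GMPs give rise to neutrophils, eosinophils, basophils and monocytes, and load the first granules of these cells with proteases and peroxidase while they still divide. CLPs depend on the IL-7 receptor and Flt3, start to rearrange antigen receptor genes with the Rag enzymes, and give B cells, natural killer cells, T cell precursors and a part of the plasmacytoid dendritic cells, which are major makers of type I interferon. The factors C/EBPα, PU.1 and Gfi1 direct the myeloid program, whereas E2A, Ebf1, Pax5 and Ikaros direct the lymphoid program, and age is known to lower the output of lymphoid cells from the marrow.

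Total counts were 13161206 and 13426057 in the aged GMP and 14011071 and 13983503 in the aged CLP libraries, within the range of 11237384 to 17723245 over the series. Levels are given in CPM, counts brought to a common library size with the TMM correction of edgeR, so that 3 counts, the most that a count of 0 allows, stood for 0.268 and 0.267 CPM in the GMP and 0.232 and 0.223 CPM in the CLP libraries. Duplicates differed by more than counting error in both groups, with a root mean square log2 difference per gene of 0.192 between the GMP and 0.294 between the CLP libraries. The 10 most abundant genes took 9.79% of the counts in aged GMPs, Mpo alone 5.76%, and 4.38% in aged CLPs. The reads of a fraction come from all of its cells, so a higher share of cells with a transcript and more transcript per cell cannot be told apart.

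Genes of the sorted antigens were read as a check of the labels and not as a result, since the gates chose on them. Il7r, the α chain of the IL-7 receptor, had no count in either GMP library and 201 and 190 CPM in the CLP libraries. Fcgr3, an FcγR gene, stood at 488 and 497 CPM in GMPs and at 3.94 and 1.93 CPM in CLPs. Kit was at 432 and 392 against 73.6 and 97.3 CPM. Ly6a, which encodes Sca-1, was at 13.2 and 3.03 against 221 and 207 CPM. Each of these genes lay on the side that its gate called for, without overlap between the groups. Flt3 was at 19.1 and 16.3 against 675 and 742 CPM. The labels do not list it for either gate, but the study's methods name an antibody against it in the CLP stain. Cd34, used for GMPs only, was at 493 and 450 CPM in GMPs and at 313 and 437 CPM in CLPs, and was not called (edgeR, adjusted p = 0.014), but was called higher in GMPs without aged CLP replicate 2 (0.55, adjusted p = 8.11e-05). Among antigens of the lineage mixture, Cd4 had no count in GMPs but 97.9 and 59.4 CPM in CLPs, and Cd8a had no count against 4.56 and 3.34 CPM. Ptprc, whose B220 isoform was gated out, was at 152 and 147 against 465 and 349 CPM, while Itgam, the gene of CD11b, was at 56.9 and 64.6 CPM in GMPs and 18.6 and 24.6 CPM in CLPs.

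Across the 14154 genes tested with the quasi-likelihood F-test of edgeR, 3371 were higher in aged GMPs (23.8%) and 3120 were higher in aged CLPs (22.0%) at an adjusted p under 0.01, and the median log2 difference of all genes was 0.00. A positive log2 fold change stands for a higher level in GMPs throughout, and ± gives its standard error. The calls were even in number but not in size: differences of at least 3 on the log2 scale were counted for 380 genes higher in GMPs and 947 genes higher in CLPs. The median called difference was 0.73 for GMP genes and -1.52 for CLP genes. At least 100 counts in both libraries of one fraction and no more than 3 in either library of the other were found for 16 genes in GMPs and for 166 genes in CLPs.

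The proteins of the primary granule, which neutrophil precursors make first, led the GMP side. Of the 16 genes of the primary granules and the phagocyte oxidase, 12 were higher in aged GMPs and 1 in aged CLPs, with a median log2 difference of 2.28. Mpo, myeloperoxidase, stood at 69106 and 67602 CPM in GMPs and at 194 and 250 CPM in CLPs (log2 fold change 8.26 ± 0.52, adjusted p = 1.09e-11 in edgeR). Elane, neutrophil elastase, was at 14022 and 15070 against 1.47 and 4.61 CPM (adjusted p = 1.77e-13). Its log2 fold change of 12.21 became 11.56 when aged CLP replicate 1 was left out and 13.23 when replicate 2 was. Prtn3, proteinase 3, was at 4515 and 4921 against 12.6 and 21.5 CPM (8.11 ± 0.22). Ctsg, cathepsin G, followed with 3046 and 3301 against 8.42 and 21.3 CPM. Ms4a3, a membrane protein of granulocyte and monocyte progenitors, was at 1093 and 1256 against 0.927 and 0 CPM. In each of these genes both GMP libraries lay far above both CLP libraries. The oxidase subunits did not share this pattern. Ncf1, a cytosolic subunit, was at 523 and 552 against 523 and 458 CPM without a call. Cybb, the membrane subunit, was the gene of the list that was higher in CLPs, at 116 and 141 CPM in GMPs against 898 and 604 CPM (-2.55 ± 0.24).

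The promoters of 3 granule genes, myeloperoxidase and 2 proteases, and of 3 genes of the pre-B and B cell receptor are printed to show the letters that the compared genes carry upstream of their start. Each line gives the 250 bases before the RefSeq start on the gene's strand, 5′ to 3′, from GRCm38.p6. Capitals mark a match to a PU.1 motif (GAGGAAGT) or an E-box (CAGGTG, or its reverse complement), the letters that E2A-type factors bind.
Elane, chr10:79886062-79886311, plus strand: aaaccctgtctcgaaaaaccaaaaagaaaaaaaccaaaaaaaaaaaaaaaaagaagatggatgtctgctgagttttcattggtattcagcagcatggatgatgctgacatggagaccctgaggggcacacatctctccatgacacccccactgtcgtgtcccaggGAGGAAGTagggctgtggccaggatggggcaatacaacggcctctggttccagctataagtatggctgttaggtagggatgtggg
Prtn3, chr10:79879417-79879666, plus strand: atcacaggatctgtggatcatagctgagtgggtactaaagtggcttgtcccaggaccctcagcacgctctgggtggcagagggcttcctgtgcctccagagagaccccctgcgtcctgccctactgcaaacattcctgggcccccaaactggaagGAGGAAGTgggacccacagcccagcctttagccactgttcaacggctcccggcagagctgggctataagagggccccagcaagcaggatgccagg
Mpo, chr11:87793534-87793783, plus strand: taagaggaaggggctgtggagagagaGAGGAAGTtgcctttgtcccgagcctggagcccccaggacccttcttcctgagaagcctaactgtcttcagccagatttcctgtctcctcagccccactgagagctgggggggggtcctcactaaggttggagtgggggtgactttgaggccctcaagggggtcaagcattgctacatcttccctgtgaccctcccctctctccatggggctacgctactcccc
Igll1, chr16:16863986-16864235, minus strand: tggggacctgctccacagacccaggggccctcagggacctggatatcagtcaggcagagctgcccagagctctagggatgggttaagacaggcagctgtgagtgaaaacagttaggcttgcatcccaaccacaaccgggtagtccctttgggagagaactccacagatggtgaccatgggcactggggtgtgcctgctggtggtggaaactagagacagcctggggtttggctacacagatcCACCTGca
Vpreb1, chr16:16869256-16869505, minus strand: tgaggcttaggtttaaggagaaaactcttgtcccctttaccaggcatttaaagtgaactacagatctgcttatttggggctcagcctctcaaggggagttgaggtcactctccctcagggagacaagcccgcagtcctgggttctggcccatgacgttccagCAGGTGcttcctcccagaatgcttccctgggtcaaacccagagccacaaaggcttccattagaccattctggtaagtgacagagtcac
Cd79a, chr7:24897247-24897496, plus strand: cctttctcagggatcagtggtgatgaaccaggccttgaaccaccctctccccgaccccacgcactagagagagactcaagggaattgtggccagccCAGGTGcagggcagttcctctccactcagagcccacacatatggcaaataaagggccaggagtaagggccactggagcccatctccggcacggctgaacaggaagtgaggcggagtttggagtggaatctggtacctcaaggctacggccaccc
The PU.1 motif began 85 bases before the start in Elane, 95 in Prtn3 and 224 in Mpo, and the E-box 8 bases before it in Igll1, 88 in Vpreb1 and 154 in Cd79a. Elane (ENSMUSG00000020125.7) and Prtn3 (ENSMUSG00000057729.12) lie close together on chromosome 10, at 79886247 to 79888215 and 79874476 to 79883174 in the GENCODE annotation of GRCm38. Igll1 (16860671 to 16863985) and Vpreb1 (16868403 to 16870843) likewise lie close together on chromosome 16. Apart from Igll1, the start of each of these genes in RefSeq lies inside the span that GENCODE gives, so the printed windows may hold bases that another transcript includes.

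These letters were searched in 32851 RefSeq promoters of 250 bases on both strands, with 5 motifs chosen after the expression values were known and with no motif whose letters contain those of another. Of the 13 promoters that matched 12 of the 16 primary granule and oxidase genes, 4 held the PU.1 motif (30.8%, in Ctsc, Elane, Mpo and Prtn3), against 2.44% of all promoters. The RUNX motif (TGTGGT) was in 5 of the 13 (38.5%, against 14% of all), an E-box in 2 (15.4%, against 17.2%), the octamer (ATGCAAAT) in 1 (7.69%, against 1.6%) and the C/EBP motif (TTGCNNAA) in 0, against 9.56%. Of 13 promoters of 12 of the 21 B lineage genes, 10 held an E-box (76.9%), in Bank1, Blnk, Cd22, Cd79a, Fcrla, Igll1, Syk, Vpreb1 and Vpreb2. The octamer and the RUNX motif were in 2 of these each (15.4%), and the PU.1 and C/EBP motifs in 1 each (7.69%). Of 9 promoters of 9 of the 11 plasmacytoid dendritic cell genes, 4 held an E-box and 4 the RUNX motif (44.4% each). The C/EBP motif was in 3 of them (33.3%), and the PU.1 motif and the octamer were in 0. The wide sets differed less. A PU.1 motif stood in 3.98% of the 377 promoters that matched genes with at least 3 log2 units more in GMPs and in 3.5% of the 886 promoters that matched genes with as much more in CLPs, and an E-box in 19.1% and 21.7%. A match describes the letters of the window and does not show that a factor binds.

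**Figure D1:**
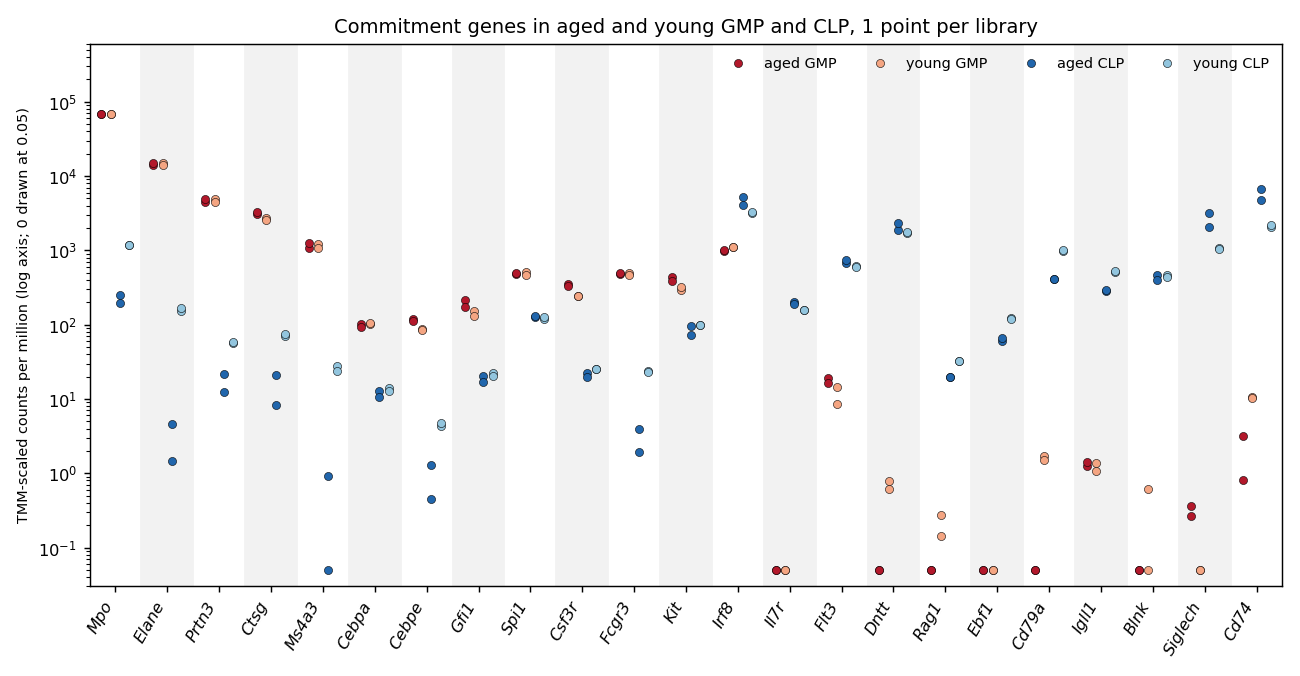
Levels of 23 genes (horizontal axis) in each library of aged and young GMPs and CLPs, as TMM-scaled CPM on a log axis, with a count of 0 drawn at 0.05 CPM and 1 point per library. For Mpo and Elane the aged GMP points (69106 and 67602, 14022 and 15070 CPM) lie far above the aged CLP points, and for Il7r, Dntt and Cd79a both aged GMP points lie at 0.

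Granule proteins that neutrophils make later in maturation were split. Of 14 tested genes 6 were higher in GMPs and 4 in CLPs, with a median of -0.12 that became 0.41 when aged CLP replicate 1 was left out, -0.62 when replicate 2 was and -0.20 without aged GMP replicate 2. Hp, haptoglobin, was at 607 and 676 CPM in GMPs against 4.09 and 2.15 CPM in CLPs (7.68 ± 0.25). Anxa1, annexin A1, was at 385 and 442 against 69 and 63.3 CPM (2.64 ± 0.10). On the other side, Ltf, lactoferrin, was at 2.42 and 3.47 against 37.1 and 21.2 CPM (-3.30 ± 0.47), and Ngp, neutrophilic granule protein, at 3.4 and 8.19 against 43.6 and 27.3 CPM. The 2 CLP libraries were unequal in this list, with a summed level of 287 CPM in replicate 1 and 182 CPM in replicate 2. The number of list genes called higher in CLPs became 7 without aged CLP replicate 2, and the part of mature cells in it was not tested.

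Genes of monocytes and macrophages were divided too, with 7 of 15 higher in GMPs, 4 higher in CLPs and a median of 1.44, or 0.78 without aged CLP replicate 2. F13a1, factor XIII A, was at 1350 and 1458 CPM in GMPs and 19.2 and 15 CPM in CLPs (6.36 ± 0.26), and Ly6c2, a Ly-6C antigen gene that may share reads with its near-identical copy Ly6c1, at 2022 and 2550 against 520 and 382 CPM (2.34 ± 0.17). Csf1r, the M-CSF receptor, was at 337 and 348 against 47.3 and 71.9 CPM (2.52 ± 0.18). The reverse was seen for Mpeg1, a pore-forming protein of macrophages and dendritic cells, at 60.9 and 107 against 1667 and 1641 CPM (-4.30 ± 0.26). Ctss, the protease cathepsin S of antigen-presenting cells, was at 37.1 and 49.2 against 685 and 469 CPM (-3.74 ± 0.20). Cd68 was at 44.2 and 48 against 361 and 223 CPM (-2.66 ± 0.22). Defining genes of mature marrow macrophages were near or at 0: C1qa, C1qb and C1qc had no count in GMPs and at most 0.892 CPM in CLPs, and Cd5l had no count in the 4 libraries. In the list of 10 macrophage genes the summed level was 147 and 182 CPM in GMPs and 31.9 and 34.6 CPM in CLPs, of which Vcam1 (87.5 and 121 against 1.54 and 1.34 CPM) and the iron exporter Slc40a1 (49.5 and 49.2 against 2.24 and 1.26 CPM) were higher in GMPs and Cd163 (6.17 and 6.77 against 18.3 and 25.6 CPM) and C1qb higher in CLPs. The call of C1qb was lost in 3 of 4 fits that left out a library, with adjusted p of 0.0124 without aged GMP replicate 1, 0.0131 without aged GMP replicate 2 and 0.0106 without aged CLP replicate 2.

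Transcription factors of the myeloid program were mostly on the GMP side, with 11 of 17 higher in GMPs, 2 higher in CLPs and a median of 1.44. Cebpa, the C/EBPα gene needed to form GMPs, was at 102 and 93.9 CPM in GMPs and 13 and 10.6 CPM in CLPs (3.05 ± 0.16, adjusted p = 7.42e-13 in edgeR). Gfi1, a repressor needed for neutrophils, was at 212 and 175 against 20.1 and 16.9 CPM (3.39 ± 0.20). Cebpe, which drives late granule genes, was at 119 and 112 against 1.31 and 0.446 CPM. Spi1, the gene of PU.1, was expressed on both sides, at 481 and 491 against 125 and 131 CPM (1.93 ± 0.09). Cebpb was at 136 and 142 against 20.8 and 14.7 CPM (2.97 ± 0.69), a call that was lost without aged CLP replicate 2 (adjusted p = 0.0182). Myb, needed for all progenitors, was at 861 and 792 against 333 and 390 CPM (1.19 ± 0.08). The factor that ran against the list was Irf8, which directs monocytes and dendritic cells and restrains neutrophils, at 970 and 1012 CPM in GMPs against 5307 and 4120 CPM in CLPs (-2.25 ± 0.13). Trib1, a pseudokinase that lowers C/EBPα protein, was also higher in CLPs at 8.95 and 6.14 against 120 and 56.8 CPM (-3.55 ± 0.28). Runx1, used by all blood progenitors, was at 148 and 137 against 130 and 145 CPM and was not called (0.05 ± 0.10). Junb, at 136 and 144 against 182 and 102 CPM, was not called either, and its CLP libraries lay on both sides of the GMP libraries. It was called higher in GMPs when aged CLP replicate 1 was left out (0.41, adjusted p = 0.00658 in edgeR) and higher in CLPs when its duplicate was (-0.41, adjusted p = 0.00422).

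Lymphoid receptors were mostly on the CLP side, while myeloid receptors were on both sides. Csf3r, the G-CSF receptor, was at 354 and 333 CPM in GMPs and 22.1 and 19.5 CPM in CLPs (4.04 ± 0.12), and Csf2ra, the α chain of the GM-CSF receptor, at 215 and 238 against 36 and 32.8 CPM (2.72 ± 0.12). Ifngr1, an interferon-γ receptor chain, was at 847 and 845 against 118 and 138 CPM (2.73 ± 0.08). Csf2rb2, the IL-3-specific β chain, was higher in CLPs at 27.8 and 25.6 against 339 and 216 CPM (-3.38 ± 0.22). Its sequence is close to that of Csf2rb, so reads may have been divided between them. In all, 6 of 11 myeloid receptor genes were higher in GMPs and 3 in CLPs, against shares of 23.8% and 22.0% over all genes tested. Of 13 lymphoid receptor genes 11 were higher in CLPs and the other 2 were not called, with a median of -8.02, or -5.30 with genes at 0 in GMPs set to their bound. Flt3 was lower in GMPs by a log2 fold change of -5.32 ± 0.20. Il7r was at least 729-fold higher in CLPs when the 3 counts that a count of 0 allows were put in its place. Il7r is among the 13 genes, and the gates chose on its protein. The CLP stain also held an antibody against Flt3, so these values check the sort and are no result. Ccr9, a homing receptor of thymus-seeding and plasmacytoid dendritic cells, was at 0 and 0.178 CPM in GMPs and 755 and 505 CPM in CLPs. Ccr7, the lymph node homing receptor, had no count in GMPs and 39.4 and 51.1 CPM in CLPs, at least 169-fold more. Crlf2, the receptor of the cytokine TSLP, was at 47.1 and 43.5 against 56.5 and 49.4 CPM and was not called, and neither was Cxcr4.

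Lymphoid factors were higher in aged CLPs in 22 of 24 cases and were not called in the other 2, with a median of -3.54 (-3.47 with genes at 0 in GMPs at their bound). Several factors of B cell development were at 0 on the GMP side: Ebf1, which specifies B cells, had no count in GMPs and 61.2 and 66.7 CPM in CLPs (at least 239-fold), Lef1 no count against 105 and 102 CPM (at least 387-fold), Pou2af1 no count against 136 and 150 CPM (at least 533-fold) and Id3, an inhibitor of E proteins such as E2A, no count against 58.4 and 49.8 CPM (at least 202-fold). Pax5, which fixes the B cell fate, had no count in GMPs and 3.24 and 3.57 CPM in CLPs, a call that was lost with DESeq2 (adjusted p = 0.204). The broader factors were present on both sides at different levels. Tcf3, the gene of E2A, was at 350 and 328 against 622 and 660 CPM (-0.92 ± 0.10), and Ikzf1, the gene of Ikaros, at 89.5 and 84.5 against 249 and 241 CPM (-1.49 ± 0.11). Tcf4, the E protein that plasmacytoid dendritic cells need, was at 54.4 and 53 against 871 and 670 CPM (-3.84 ± 0.11), and Foxo1, which turns on Rag genes and Il7r, at 7.96 and 7.75 against 113 and 107 CPM (-3.80 ± 0.15). Notch1, which opens the T cell path, was at 54.1 and 52.3 against 293 and 288 CPM (-2.45 ± 0.22). Ikzf2 and Bcl11b were not called. Bcl11b, the factor of T cell commitment, had no count in GMPs and 0.154 and 0 CPM in CLPs.

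Antigen receptor rearrangement genes were mostly higher in CLPs, by differences of unequal size. Dntt, the polymerase TdT that adds bases without a template, had no count in GMPs and 1880 and 2302 CPM in CLPs, at least 7810-fold more, the highest bound of the genes named here. Rag1, which forms the recombinase with Rag2, had no count against 19.9 and 19.9 CPM (at least 74.4-fold), and Rag2 was at 2.51 and 1.42 against 59.1 and 72 CPM (-5.05 ± 0.45). The end-joining genes that all cells use differed less. Prkdc was at 40.1 and 40.8 against 45.9 and 47.2 CPM and was not called. Xrcc6 was called higher in CLPs, at 137 and 142 against 237 and 260 CPM (-0.83 ± 0.08). Xrcc5 and Dclre1c were also called higher in CLPs, though not in each fit that left out a library. Xrcc5 was -0.65 without aged GMP replicate 1, and Dclre1c was -1.15 without aged CLP replicate 1. Of the 14 genes of the list, 8 were higher in CLPs and 1, the repair polymerase gene Poll, in GMPs (39.6 and 41.8 against 23.6 and 30.1 CPM), with a median of -0.80. The call of Poll was lost without aged CLP replicate 1 (adjusted p = 0.0148 in edgeR).

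Of 21 genes of the B lineage, 19 were higher in aged CLPs and 2, Btk and Cd24a, were not called, with a median of -9.92 (-7.09 with genes at their bound). The surrogate light chain genes, which pair with the heavy chain in the pre-B receptor, were Igll1 at 1.25 and 1.42 against 286 and 290 CPM (-7.74 ± 0.16) and Vpreb1 at 1.25 and 0.89 against 156 and 148 CPM (-7.14 ± 0.25). Cd79a, a signal chain of the B cell receptor, had no count in GMPs and 413 and 415 CPM in CLPs (at least 1547-fold), and its partner Cd79b was at 51 and 57.5 against 183 and 175 CPM (-1.72 ± 0.16). Blnk, the adaptor below the receptor, had no count against 465 and 405 CPM (at least 1625-fold). Ly6d, which marks CLPs that have turned to the B lineage, had no count against 936 and 971 CPM (at least 3561-fold). Ms4a1, the CD20 gene of mature B cells, had no count against 6.8 and 10.8 CPM. The call of Ms4a1 was lost with DESeq2 (adjusted p = 0.355). Apart from Ms4a1, these genes stood at similar levels in both CLP libraries. Kinases that both lineages use were nearer: Btk was at 132 and 141 against 116 and 132 CPM, and Syk at 185 and 168 against 459 and 347 CPM (-1.19 ± 0.09). The list summed to 803 and 817 CPM in GMPs and to 10900 and 8760 CPM in CLPs, of which Cd74 made up the largest part.

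Genes of T, natural killer and innate lymphoid cells were mixed, with 12 of 20 higher in CLPs and 3 in GMPs. The CD3 genes that define T cells were at or near 0 in both: Cd3e had no count in GMPs and 0.386 and 0.446 CPM in CLPs, and Cd3d and Cd3g were at most 0.541 CPM. Cd7 was at 0 and 0.267 against 546 and 353 CPM, and Lck, a kinase of early T and B cells, at 2.24 and 2.14 against 106 and 163 CPM (-5.94 ± 0.24). Tox, a factor of T and innate lymphoid precursors, had no count against 15.8 and 19.4 CPM (at least 65.6-fold). Nkg7, a granule membrane protein named for killer cells, was on the GMP side at 984 and 1056 against 49 and 54.5 CPM (4.30 ± 0.13), as were Gzmb (7.07 and 4.72 against 0 and 0.223 CPM) and Zbtb16 (19.9 and 13.9 against 1.78 and 1.34 CPM). The 8 Gimap genes, small GTPases of lymphocytes, were all higher in CLPs, with a median of -6.72 (-6.12 with genes at their bound). Gimap6 was at 2.15 and 2.14 against 153 and 181 CPM (-6.28 ± 0.16).

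The plasmacytoid dendritic cell genes were higher in aged CLPs in 11 of 11 cases, with a median of -12.99 (-9.75 with genes at their bound). Siglech, a surface lectin of these cells, was at 0.358 and 0.267 CPM in GMPs and 3155 and 2089 CPM in CLPs. Spib, an Ets factor of the same cells, was at 0.179 and 0.178 against 937 and 678 CPM. Klk1 had no count against 504 and 310 CPM, Pacsin1 no count against 265 and 170 CPM, and Cox6a2 no count against 257 and 204 CPM. Irf7, the master factor of type I interferon, was at 6.89 and 5.7 against 340 and 213 CPM (-5.45 ± 0.20), and Bst2 at 80.5 and 85 against 945 and 626 CPM (-3.25 ± 0.15). All of these genes were higher in CLP replicate 1 than in replicate 2, and the list summed to 8670 and 6190 CPM there, against 121 and 122 CPM in GMPs. With DESeq2 the calls of Klk1 (adjusted p = 0.12) and Cd209d (adjusted p = 0.189) were lost. Class II antigen presentation moved with it: 10 of 10 genes were higher in CLPs, with a median of -4.87 and a sum of 12100 and 9000 CPM against 251 and 289 CPM in GMPs. Cd74, the invariant chain, was at 0.805 and 3.21 against 6689 and 4725 CPM, H2-Ab1 at 30.2 and 36.5 against 2293 and 1721 CPM (-5.91 ± 0.22), and Ciita, the switch of the class II genes, at 0 and 0.356 against 79.9 and 62.3 CPM. Interferon-stimulated genes were higher in CLPs in 21 of 30 cases and in GMPs in 3 (Oas1a, Gbp3 and Ifih1), with a median of -1.56. The 3 became 1 in each of the 4 fits without an aged GMP or CLP library, with DESeq2 or its scaling and without the filter on low counts, 2 with the replicate block or the offsets for GC content and length, and 0 in the 4 libraries alone. Usp18 was at 4.56 and 4.63 against 54.2 and 44.4 CPM (-3.42 ± 0.16) and Ifit1 at 2.86 and 3.38 against 4.25 and 4.24 CPM without a call. The part of plasmacytoid dendritic cells inside the CLP gate in these values was not tested. Class I genes differed less: 8 of 13 were higher in CLPs, among them B2m at 1533 and 1818 against 2775 and 2698 CPM (-0.71 ± 0.07), and the 3 higher in GMPs were the chaperones Calr and Pdia3 and the peptidase Erap1. Erap1 was at 191 and 190 against 163 and 151 CPM, and its call was lost in each fit that left out a library, with adjusted p of 0.0937 and 0.0941 without aged GMP replicates 1 and 2 and of 0.0516 and 0.202 without the CLP replicates.

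**Figure D2:**
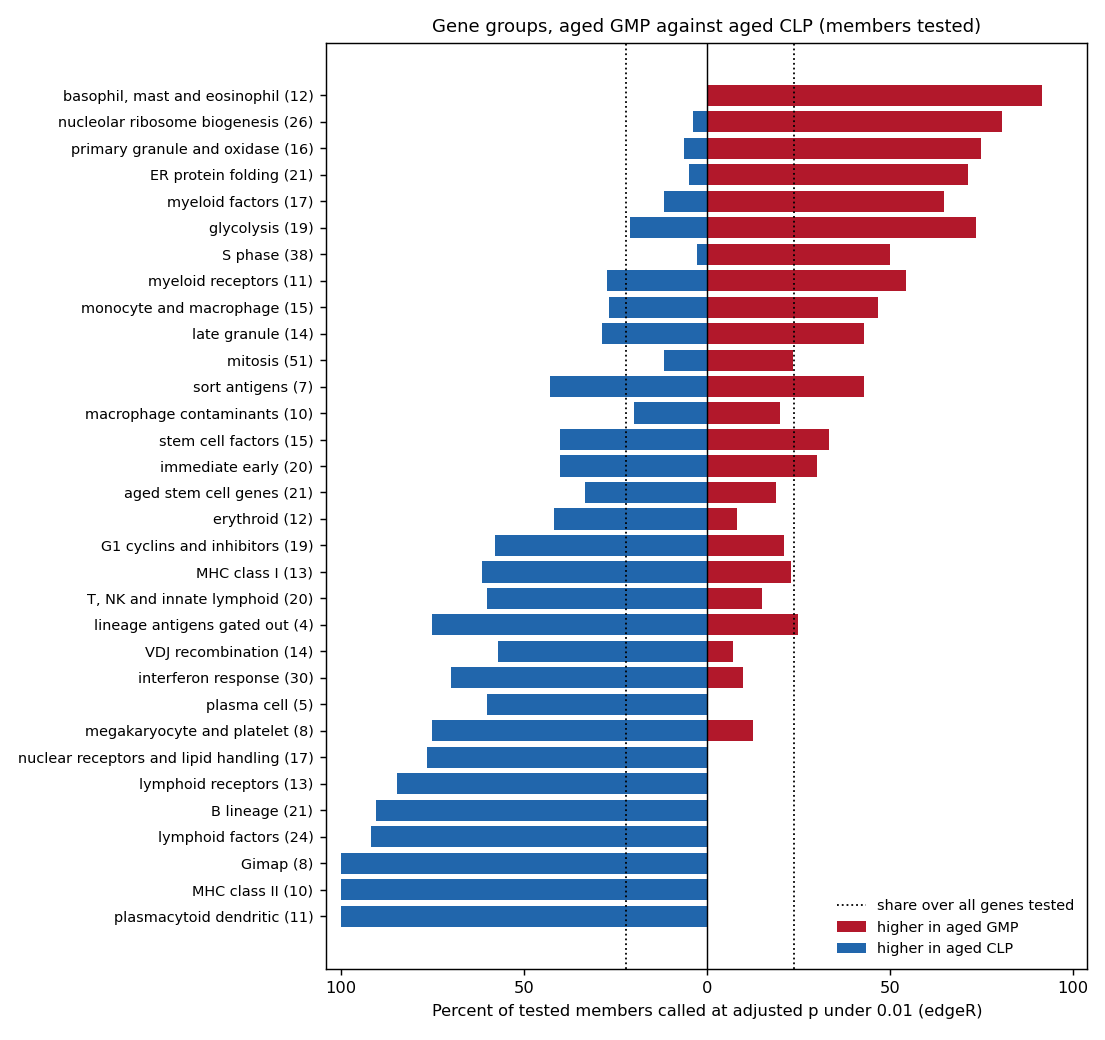
Share of tested members of each of the 32 gene lists called higher in aged GMPs (bars to the right) or in aged CLPs (bars to the left), in percent, with the number tested in parentheses and dotted lines at the shares over all genes (23.8% and 22.0%). The bars run from basophil, mast cell and eosinophil genes (11 of 12 higher in GMPs) to plasmacytoid dendritic cell genes (11 of 11 higher in CLPs).

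Basophil, mast cell and eosinophil genes were higher in aged GMPs in 11 of 12 cases, with a median of 4.23, and the remaining gene, Il4, had no count in the 4 libraries. Prg2, the major basic protein of eosinophils, was at 2017 and 3004 CPM in GMPs and 216 and 69.9 CPM in CLPs (4.14 ± 0.33), and Epx, eosinophil peroxidase, at 983 and 1281 against 96.2 and 33.4 CPM (4.13 ± 0.34). Hdc, the enzyme that makes histamine, was at 502 and 447 against 3.09 and 1.04 CPM. Prss34, a basophil protease on chromosome 17 (25298394 to 25300165), was at 98.7 and 140 CPM in GMPs with no count in CLPs, at least 525-fold more. Cpa3, carboxypeptidase A3 of mast cells and basophils, was at 82.9 and 91.6 against 6.87 and 8.99 CPM (3.46 ± 0.12). Gata2, the factor of these lineages, was at 41.9 and 35.5 against 0.695 and 4.31 CPM. The libraries of both fractions were unequal in this list, with sums of 3930 and 5290 CPM in GMPs and 335 and 126 CPM in CLPs, and did not overlap.

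Some markers of other cells that a marrow sort could carry differed between the CLP duplicates, and others did not. Globin genes were higher in CLP replicate 1 for Hbb-b1 (227 against 35.7 CPM in replicate 2) and Hba-a2 (440 against 1.04 CPM) and not for Hba-a1 (51.5 and 69.3 CPM). These copies are near-identical, so their counts are uncertain. The call of Hbb-b1 (-2.26 ± 0.48) was lost without aged CLP replicate 1 (-0.44, adjusted p = 0.228 in edgeR) and without aged GMP replicate 2 (-1.78, adjusted p = 0.0136). Of 12 erythroid genes 5 were called higher in CLPs and 1, Gata1, in GMPs, and the 5 became 2 without aged GMP replicate 2 and 3 in the 4 libraries alone. Gata1, the erythroid and mast cell factor, was at 5.73 and 5.7 against 1.85 and 3.57 CPM, and its call was lost without aged CLP replicate 1 (adjusted p = 0.0785) or either GMP library (adjusted p = 0.0156 in both). Of 8 platelet and megakaryocyte genes 6 were higher in CLPs, with Pf4 at 0.537 and 4.27 against 36.4 and 77.2 CPM and Vwf at 0 and 0.712 against 15.3 and 29.6 CPM, while Selp was higher in GMPs at 26.8 and 24.4 against 4.32 and 5.28 CPM. The megakaryocyte list summed to 136 and 221 CPM in CLPs and 76.1 and 76.8 CPM in GMPs. Among plasma cell genes 3 of 5 were higher in CLPs: Sdc1 was at 3.85 and 4.45 against 173 and 173 CPM (-5.38 ± 0.17), Jchain had no count against 53.8 and 92.2 CPM and Mzb1 was at 0 and 0.178 against 125 and 119 CPM, while Prdm1, the factor that defines plasma cells, was at most 0.669 CPM in each library. Stem cell factors were on both sides, 5 of 15 higher in GMPs (3 without aged CLP replicate 1 or in the 4 libraries alone) and 6 in CLPs (2 without aged CLP replicate 2 and 3 in the 4 libraries alone): Lmo2 was at 350 and 347 against 200 and 180 CPM (0.87 ± 0.06), Meis1 at 18.8 and 17.3 against 42.8 and 46.9 CPM (-1.31 ± 0.13) and Mycn at 0 and 0.267 against 24.9 and 30.2 CPM. Of 21 genes known to rise in aged stem cells, 4 were higher in GMPs, such as Mt1 at 117 and 143 against 2.86 and 4.76 CPM. Another 7 were higher in CLPs, such as Itgb3 at 14 and 13.5 against 56.3 and 56.4 CPM. The shares over all genes tested were 23.8% and 22.0%, and the GMP count did not exceed its share.

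Genes of growth and protein production were higher in aged GMPs. Of 19 glycolysis genes 14 were higher in GMPs and 4 in CLPs, with a median of 1.07. Hk3, a hexokinase of myeloid cells, was at 1044 and 1004 against 9.65 and 12.1 CPM (6.55 ± 0.22), Gpi1 at 2135 and 2139 against 489 and 503 CPM (2.11 ± 0.07) and Pgam1 at 1676 and 1840 against 358 and 386 CPM (2.24 ± 0.07). The 4 genes higher in CLPs were mostly other isoforms of steps in the same path: the glucose transporter Slc2a3 (17.5 and 14.7 against 118 and 102 CPM, -2.77 ± 0.12), Aldoc (1.34 and 0.89 against 26.3 and 15.2 CPM), Pfkm (20.3 and 17.9 against 27.2 and 30.7 CPM) and Ldhb (79.5 and 84.6 against 134 and 95.8 CPM). The call of Ldhb was lost without aged CLP replicate 1 (adjusted p = 0.0716 in edgeR) and without aged GMP replicate 1 (adjusted p = 0.0174). Of 26 genes of ribosome biogenesis 21 were higher in GMPs and 1, Bysl, in CLPs, with a median of 0.62, and the differences were small, up to 1.22 ± 0.07 for Wdr12. Of 21 genes of protein folding in the endoplasmic reticulum, through which granule proteins pass, 15 were higher in GMPs and 1, the stress sensor Atf6, in CLPs, with a median of 0.77. The call of Atf6 (94.5 and 89.6 against 150 and 131 CPM) was lost without aged GMP replicate 2 (adjusted p = 0.0178) and without aged CLP replicate 1 (adjusted p = 0.0203), and with the offsets for GC content and length (-0.40, adjusted p = 0.0203, and 0.0216 with the replicate block as well). Calr, calreticulin, was at 4001 and 3856 against 906 and 891 CPM (2.13 ± 0.05), P4hb at 3206 and 3281 against 975 and 984 CPM (1.73 ± 0.05) and Ero1l at 269 and 277 against 52.8 and 47.5 CPM (2.44 ± 0.11), while Xbp1, the factor of the secretory stress response, was at 451 and 435 against 494 and 409 CPM without a call. Sterol genes lay on the opposite side: 13 of 17 genes of sterol and fatty acid handling were higher in CLPs and the other 4 were not called, with a median of -1.34. Srebf2, the factor of cholesterol synthesis, was at 162 and 153 against 519 and 447 CPM (-1.62 ± 0.11), and its target Insig1 at 45.9 and 37.8 against 166 and 116 CPM (-1.75 ± 0.13).

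Cell cycle genes differed little in size, and their counts depended on single libraries. Of 38 S phase genes 19 were higher in GMPs and 1, Slbp, in CLPs, with a median of 0.32, or 0.14 without aged CLP replicate 1. The call of Slbp (231 and 246 against 263 and 285 CPM) was lost without aged GMP replicate 1 (adjusted p = 0.0192) and without aged CLP replicate 2 (adjusted p = 0.0176). Mcm5, a subunit of the replicative helicase, was at 864 and 872 against 491 and 580 CPM (0.70 ± 0.07), and Cdc45 at 170 and 160 against 74.1 and 92 CPM (0.99 ± 0.08). The list summed to 10400 and 10400 CPM in GMPs and to 7750 and 9130 CPM in CLPs. The 19 calls became 7 without aged CLP replicate 1, 10 and 12 without aged GMP replicates 1 and 2, and 2 when the 4 aged GMP and CLP libraries were fitted alone. Of 51 genes of mitosis 12 were higher in GMPs and 6 in CLPs, and neither count exceeded the share over all genes tested (23.8% and 22.0%). The median of 0.06 became -0.15 when aged CLP replicate 1 was left out and 0.22 when replicate 2 was. The 12 became 4 without aged CLP replicate 1, 4 and 5 without aged GMP replicates 1 and 2 and 2 in the fit of the 4 libraries alone, and the 6 became 10 without aged CLP replicate 1 or with DESeq2 but 3 when replicate 2 of either fraction was left out. Regulators of the G1 phase showed larger differences, 11 of 19 higher in CLPs and 4 in GMPs, the latter 2 without aged GMP replicate 1 or 2 and 1 without aged CLP replicate 1 or in the 4 libraries alone. Ccnd1, cyclin D1, was at 8.23 and 13.4 against 274 and 262 CPM (-4.63 ± 0.23), and Ccnd3, the cyclin D3 that pre-B cells need, at 308 and 311 against 1218 and 1299 CPM (-2.02 ± 0.08). The inhibitor Cdkn1a was at 11.5 and 10.2 against 73.5 and 81.5 CPM (-2.84 ± 0.14). On the GMP side was Cdk6, at 239 and 235 against 106 and 124 CPM (1.04 ± 0.11). Mycl, a Myc family gene of dendritic cells, was at 1.34 and 2.05 against 257 and 159 CPM (-6.93 ± 0.33). Immediate early genes, which cells switch on within minutes of a stimulus or of handling, were unequal between the CLP duplicates, with a sum of 4910 CPM in replicate 1 and 2490 CPM in replicate 2 against 2750 and 2400 CPM in GMPs. Of 20 genes 6 were called higher in GMPs and 8 in CLPs, the latter 5 without aged CLP replicate 1 or aged GMP replicate 2. Fos was at 796 and 648 against 783 and 315 CPM and was not called, but was called higher in GMPs without aged CLP replicate 1 (1.14, adjusted p = 2.54e-07 in edgeR).

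The 12 genes with the largest fitted differences on each side, among called genes with at least 100 counts in both libraries of the higher fraction, included genes of these programs and others. On the GMP side they were Prss34, Mefv, Dmkn, Mrgpra2b, Elane, Cracr2b, Slc22a4, Ms4a3, Wfdc21, Nrg1, Tnfsf13 and Cldn15. Mefv, the gene of pyrin, an inflammasome sensor of granulocytes, was at 63.9 and 66.1 CPM with no count in CLPs (at least 286-fold), and Slc22a4, a transporter of ergothioneine, at 32.2 and 31.3 CPM with no count (at least 140-fold). Tnfsf13, the cytokine APRIL that sustains plasma cells, was at 83 and 92.5 against 0 and 0.0743 CPM. On the CLP side they included Dntt, Ly6d, Blnk, Cd79a, Klk1, Sdc4, Cox6a2, Pacsin1, Il7r and Cd209a. The gates chose on the protein of Il7r, so its place here is no result. Sdc4, a syndecan, had no count in GMPs and 298 and 197 CPM in CLPs (at least 925-fold). The call of Cd209a (220 and 125 CPM in CLPs) was lost with DESeq2 (adjusted p = 0.159). Of the 24 genes, 20 had no count in either library of the lower fraction.

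The same contrast was read in the young libraries, which share no sample with the aged contrast. There, 3733 genes were higher in young GMPs (26.4%) and 3925 in young CLPs (27.7%) by the same test. Of the 3371 genes higher in aged GMPs, 2619 (77.7%) were also higher in young GMPs, 54 (1.6%) were higher in young CLPs and 698 were not called. Of the 3120 genes higher in aged CLPs, 2451 (78.6%) were also higher in young CLPs, 50 (1.6%) were higher in young GMPs and 619 were not called. Across genes, which are not independent replicates, Pearson's r of the log2 fold changes was 0.76. The granule and oxidase, B lineage and plasmacytoid dendritic lists kept their sides. Of the primary granule and oxidase genes 15 of 16 were higher in young GMPs. In young CLPs 21 of 21 B lineage genes and 11 of 11 plasmacytoid dendritic genes were higher. Mpo was at a mean of 69001 CPM in young GMPs and 1180 CPM in young CLPs, and Dntt at 0.703 and 1740 CPM.

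**Figure D3:**
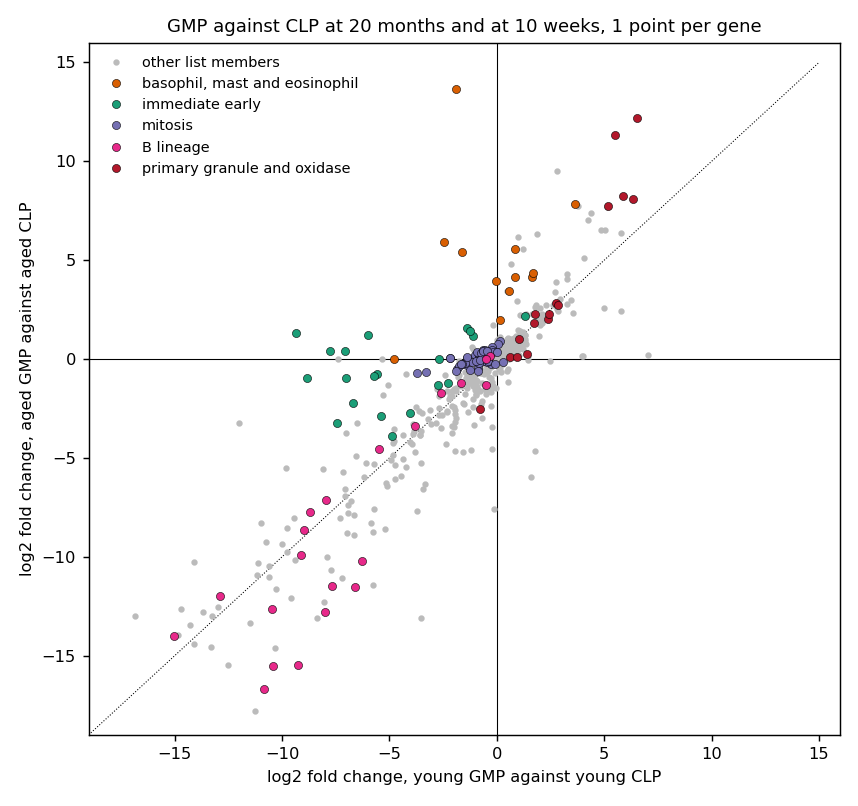
Fitted log2 fold change of GMPs against CLPs in young libraries (horizontal axis) and in aged libraries (vertical axis), 1 point per tested gene of the lists, with 5 lists in colour and the dotted line at equal values. Of the primary granule and oxidase genes, Elane, Ms4a3, Mpo, Ctsg and Prtn3 lie toward the upper end and above the line. B lineage genes lie toward the lower end on both sides of the line, while most immediate early and basophil, mast cell and eosinophil genes lie above it. Fitted values of genes at 0 in a group are not bounds.

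Whether the contrast itself differed with age was tested as an interaction, the aged GMP minus CLP difference minus the young one. It was greater in aged cells for 956 genes (6.75%) and smaller for 882 (6.23%). The interaction uses both contrasts, so group levels are given beside many of the values, though not for every gene and group. Basophil, mast cell and eosinophil genes were greater in 10 of 12 cases, and the other 2 were not called. For Prss34 the means were 352 CPM in young GMPs and 1296 CPM in young CLPs, against the levels in aged GMPs and none in aged CLPs given above (fitted interaction 15.56, which is no bound as 1 group is at 0, adjusted p = 4.31e-09 in edgeR). Mcpt8, a basophil protease, had means of 92.7 CPM in young GMPs and 285 CPM in young CLPs, against 57.6 and 75.8 CPM in aged GMPs and 0.772 and 2.3 CPM in aged CLPs. The list summed to 2420 and 2470 CPM in young CLPs and to 335 and 126 CPM in aged CLPs, so the young CLP libraries lay above both aged ones. Primary granule and oxidase genes were greater in 5 of 16 cases, Mpo, Elane, Prtn3, Ctsg and Ms4a3, whose levels in aged CLPs were under those in young CLPs. Elane had means of 14498 CPM in young GMPs and 159 CPM in young CLPs (5.70, adjusted p = 1.73e-06, with 5.12 when aged CLP replicate 1 was left out and 6.78 when replicate 2 was), and Mpo means of 69001 and 1180 CPM (2.40, adjusted p = 0.00295). The call of Mpo was lost without young GMP replicate 1 (adjusted p = 0.0113), young GMP replicate 2 (adjusted p = 0.0117) or aged CLP replicate 1 (adjusted p = 0.0187). The interaction was smaller in 4 cases, Srgn, Ctsc, Cybb and Ncf1, which became 2 without young CLP replicate 1, aged GMP replicate 1 or aged CLP replicate 1. Macrophage genes were also more abundant in young CLPs, with sums of 267 and 290 CPM against 31.9 and 34.6 CPM. The part of other cells inside the CLP gate in these differences was not tested.

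Immediate early genes were greater in 15 of 20 cases and not called in the other 5. Egr1 was at 69 and 83 CPM in aged GMPs and 29.5 and 31.1 CPM in aged CLPs, against means of 0.349 CPM in young GMPs and 234 CPM in young CLPs (10.67, adjusted p = 4.27e-16). Fos had means of 17.2 CPM in young GMPs and 2343 CPM in young CLPs. The list summed to 489 and 485 CPM in young GMPs and 8140 and 8790 CPM in young CLPs, and the part of the time between marrow collection and lysis was not tested. Mitosis genes were greater in 38 of 51 cases and not called in the other 13, with sums of 8890 and 9030 CPM in young GMPs and 13800 and 13800 CPM in young CLPs, against 10600 and 10700 CPM and 9470 and 11100 CPM in the aged fractions. Mki67, the proliferation antigen, had means of 33.4 and 324 CPM in young GMPs and CLPs, and was at 164 and 174 and at 234 and 292 CPM in aged ones (2.64, adjusted p = 2.40e-06). Class II genes were smaller in 5 of 10 cases and not called in the other 5, and their sum in CLPs was 3840 and 3990 CPM in young against 12100 and 9000 CPM in aged libraries. Cd74 had means of 10.4 and 2131 CPM in young GMPs and CLPs (-3.79, adjusted p = 1.97e-05). The sum of plasmacytoid dendritic genes in CLPs was 4120 and 4130 CPM in young and 8670 and 6190 CPM in aged libraries, and 2 of those 11 genes, Irf7 and Ly6d, were smaller in the interaction. The 2 became 0 without young CLP replicate 1, young CLP replicate 2, aged GMP replicate 2 or aged CLP replicate 1, became 1 without young GMP replicate 1, young GMP replicate 2 or aged GMP replicate 1 and in the fit of the libraries compared alone, and became 3 without aged CLP replicate 2.

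The interaction was smaller for 6 of 8 platelet and megakaryocyte genes and for 7 of 21 folding genes. The 6 became 0 when only the young and aged GMP and CLP libraries were fitted. The 7 became 3 without aged GMP replicate 1, aged CLP replicate 1, young GMP replicate 1 or young CLP replicate 1 and in that fit, and 4 without aged GMP replicate 2, young GMP replicate 2 or young CLP replicate 2. Xbp1 had the largest interaction of the folding genes, with means of 624 CPM in young GMPs and 226 CPM in young CLPs, beside the levels in aged cells given above (-1.50, adjusted p = 2.16e-07). Of 17 myeloid factors 7 were greater and 1 was smaller, and of 14 late granule genes 6 were greater and 0 smaller. Monocyte and macrophage genes were greater in 2 of 15 cases and smaller in 6. The shares over all genes tested were 6.75% and 6.23%. In the fit of the libraries compared alone these counts became 4 and 0, 4 and 0, and 1 and 5. Of 24 lymphoid factors 2, Tcf3 and Sox4, were greater, near the share of 6.75% over all genes tested, and the other 22 were not called. The 2 became 1 with the replicate block, with the scaling of DESeq2, without the filter on low counts, with the offsets for GC content and length and in the libraries compared alone, and also without replicate 1 of any of the 4 groups or without young CLP replicate 2. Il7r had means of 0 and 158 CPM, Ebf1 0 and 121 CPM and Flt3 11.4 and 610 CPM in young GMPs and CLPs, and none of these was called in the interaction. Tcf3 had means of 248 and 865 CPM (0.88, adjusted p = 1.13e-04). Ccnd1 had means of 25.9 and 99.3 CPM in the young fractions, against 8.23 and 13.4 and 274 and 262 CPM in the aged (-2.69, adjusted p = 1.93e-06).

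The contrast was also set beside that of the aged fractions upstream, the myeloid-biased MPP3 and the lymphoid-primed MPP4, from libraries that the GMP and CLP comparison did not use. In them 328 genes were higher in MPP3 (2.32%) and 273 in MPP4 (1.93%). Of the genes higher in aged GMPs 168 (4.98%) were higher in MPP3 and 38 in MPP4, and of the genes higher in aged CLPs 191 (6.12%) were higher in MPP4 and 82 in MPP3. Across genes, Pearson's r of the log2 fold changes was 0.13. Elane was at 126 and 124 CPM in MPP3 and 2.89 and 2.96 CPM in MPP4 (5.41 ± 0.51, adjusted p = 1.83e-07 in edgeR). Dntt was at 72.4 and 72.8 against 1045 and 1090 CPM (-3.88 ± 0.11). Flt3 was at 167 and 210 against 682 and 782 CPM (-1.96 ± 0.17), but the study's stain for MPPs held an antibody against it. Elane and Dntt thus lay on the same sides as between GMPs and CLPs, without overlap. Irf8 also did, at 30.7 and 33.2 against 99 and 102 CPM (-1.65 ± 0.13). The primary granule and oxidase list was split, with 5 of 16 genes higher in MPP3 and 4 in MPP4 (median 0.23). Of 17 myeloid factors 0 were higher in MPP3 and 1 in MPP4 (median -0.28). Late granule genes, split between GMPs and CLPs, were higher in MPP3 in 12 of 14 cases, and basophil, mast cell and eosinophil genes in 6 of 12. Of lymphoid factors 8 of 24 were higher in MPP4 and 1, Pou2af1, in MPP3. Of B lineage genes 2 of 21 were higher in MPP4, Blnk at 0.737 and 0.802 against 6.82 and 7.59 CPM and Ly6d at 0.737 and 1.31 against 3.56 and 2.67 CPM. The call of Ly6d was lost without aged MPP3 replicate 1 (adjusted p = 0.0553) and without aged MPP4 replicate 1 (adjusted p = 0.0489). The summed level of the lymphoid factors was 2240 and 2300 CPM in aged MPP4, between the 952 and 897 CPM of aged GMPs and the 5210 and 4760 CPM of aged CLPs.

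**Figure D4:**
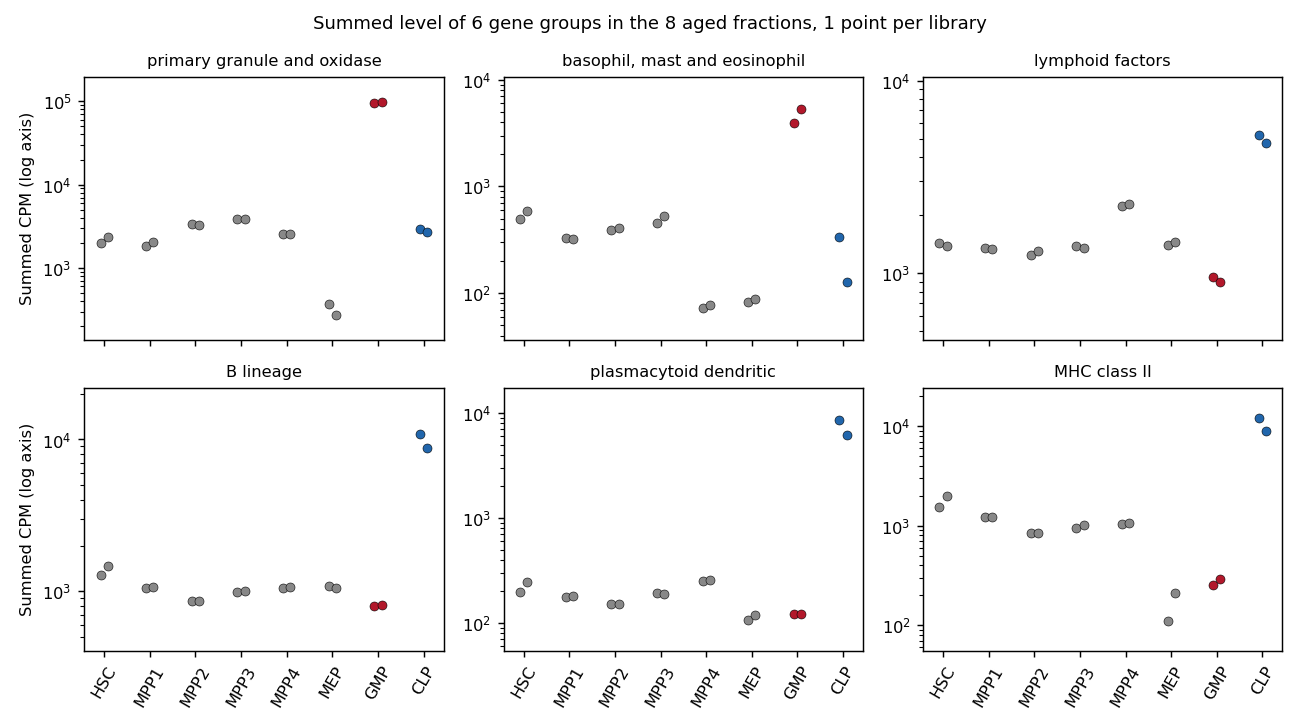
Summed level of 6 gene lists (panels) in each library of the 8 aged fractions (horizontal axis), as TMM-scaled CPM on a log axis that differs between panels, 1 point per library with GMPs in red and CLPs in blue. Lymphoid factor genes lie highest in CLPs (5210 and 4760 CPM), next in MPP4 (2240 and 2300 CPM) and lowest in GMPs (952 and 897 CPM).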

How the data were processed

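RNA was extracted from sorted cells with RNeasy Plus Micro columns, and cDNA was made with a SMARTer low-input kit. The authors aligned single-end reads to mm10 with TopHat2 2.0.13 and Bowtie2 2.1.0 and deposited raw gene counts from StringTie, per the labels, the study's methods and the submitters' processing notes. The use of strand in counting was not stated, so overlapping genes cannot be separated. Normalised counts and the authors' own aged-against-young comparisons (fold changes and p-values) were not used here.

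The counts of all 32 libraries in 16 groups were fitted in edgeR 4.0.16 (R 4.3.3) and tested by its quasi-likelihood method, with TMM scaling, the default filter on low counts (14154 of 24421 genes tested), Benjamini-Hochberg adjustment and a threshold of 0.01. All groups shared the estimate of spread (residual degrees of freedom 16), since each group has 2 libraries. Standard errors were taken as the log2 fold change over the square root of F. DESeq2 1.42.0 was an alternative. In counts simulated for aged GMPs against aged CLPs on 13334 genes, edgeR recovered 88% of 2-fold and 99% of 4-fold changes with 2 false calls. The simulation gave all libraries the same mean profile and all genes the same dispersion (0.0127), with 100 genes changed per fold size. The real contrast had far more called genes and duplicates of unequal spread, so these figures may not hold for it. The floor of 3 counts covers counting error only, while the standard errors also include the spread between duplicates. A total of 27 row names had been turned into dates, which held 0.181% of the counts of the 4 aged libraries and were not named.

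The 4 libraries and the 32 gene lists (518 genes) were chosen with earlier results of these data known. Genes named by rule were the 12 largest called differences in each direction, up to 6 of each list, the 8 largest age differences in each direction (all with at least 100 counts in both libraries of the higher group), the sort and lineage antigens, and the 4 most abundant factors not called. Other list members were named for their known role after their values were seen. Some genes that the rules name are not reported here. Ly6g was not analysed here, and Gp6, Tnfrsf17, Cdkn2a and Cdkn2b did not pass the filter. Gene positions came from GENCODE M21 (GRCm38) and promoter sequences from RefSeq (GRCm38.p6).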

Additional observations from a re-analysis of the deposited data

Results flagged for a closer look

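The aged minus young change of the GMP minus CLP difference was largest in the 16 genes given here, chosen by that size among genes past the interaction test of edgeR. Values are log2, and where a group has no count the fitted value is not a bound.

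Prss34 (15.56, adjusted p = 4.31e-09) and the IgE receptor gene Fcer1a (8.38, adjusted p = 1.66e-07) are genes of basophils and mast cells. Fcer1a was at 15.6 and 22.5 CPM in aged GMPs and 0.618 and 0 CPM in aged CLPs, against means of 9.66 and 52.8 CPM in young GMPs and CLPs. Cyp11a1 (9.52, adjusted p = 1.38e-06), the first enzyme of steroid synthesis, was at 4.65 and 6.06 CPM in aged GMPs and at 0 in aged CLPs, with young means of 11.2 and 14 CPM. Col5a3 (12.49, adjusted p = 0.00246) had a young CLP mean of 19.9 CPM and no count in aged CLPs, and its call was lost with DESeq2 (adjusted p = 0.495) and without young CLP replicate 1 (0.0104), young CLP replicate 2 (0.0141) or aged GMP replicate 2 (0.0187). Wfdc21 (8.66, adjusted p = 4.65e-04) was at 16.8 and 24.1 CPM in aged GMPs with no count in aged CLPs, and at means of 24.1 and 4.33 CPM in young ones. Egr1 (10.67), Plk2 (9.35, adjusted p = 5.05e-05) and Mmp9 (8.78, adjusted p = 3.74e-04) were high in young CLPs and at or near 0 in young GMPs. Young CLP means were 37.6 CPM for Plk2 and 37.4 CPM for Mmp9, whose call was lost without aged GMP replicate 1 (adjusted p = 0.0116 in edgeR).

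On the smaller side, Vwf (-7.53, adjusted p = 4.11e-04), the von Willebrand factor gene, was at 15.3 and 29.6 CPM in aged CLPs and at means of 0.384 and 0.123 CPM in young GMPs and CLPs, and its call was lost without young GMP replicate 2 (adjusted p = 0.0164). Adamts13 (-9.67, adjusted p = 9.92e-11), the protease that cleaves that factor, had no count in aged GMPs and a mean of 8.8 CPM in young GMPs, with 9.88 and 12.9 CPM in aged CLPs. Plbd1 (-7.31, adjusted p = 4.65e-04) and Abcb4 (-7.27, adjusted p = 2.88e-04) likewise had no count in aged GMPs against means of 2.96 and 1.27 CPM in young GMPs. Cd4 (-9.54, adjusted p = 0.00213) and Kynu (-7.83, adjusted p = 0.00715) rested on young GMP replicate 2, without which they were -1.73 and -1.29 with an adjusted p of 1. The call of Cd4 was also lost without aged GMP replicate 1 (0.0154) or 2 (0.0144), and that of Kynu in every other fit that left out a library except that without aged CLP replicate 2 or young GMP replicate 1. Ly6c1 (-11.27, adjusted p = 0.00417), a near-identical copy of Ly6c2 whose counts are uncertain, was at 0 and 38.6 CPM in aged CLPs and became -0.20 without aged CLP replicate 2. Its call was lost as well without aged GMP replicate 1 (0.0148) or 2 (0.0105) and young CLP replicate 1 (0.0262) or 2 (0.027). The transcript 4930562F07Rik (-7.05, adjusted p = 4.45e-04) was at 6.41 and 0.446 CPM in aged CLPs and became -4.13 without aged CLP replicate 1 (adjusted p = 0.0876). When only the libraries compared were fitted, the calls of Mmp9 (adjusted p = 0.0157), Ly6c1 (0.106), Cd4 (0.0649), Kynu (0.084), Vwf (0.0186), Plbd1 (0.0182) and 4930562F07Rik (0.0176) were lost.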

How the results depend on the processing

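The counts of genes that differed between aged GMPs and aged CLPs stayed within 1.5 times of the 3371 and 3120 given above under each change of scaling, filter, test, samples fitted and library left out. They were 1213 and 2068 with a fold threshold of 1 log2 unit. With the scaling of DESeq2 they were 2902 and 3477, and the median of all genes was -0.05. The age difference of the contrast depended more on the setting, with 457 greater and 370 smaller in a fit of the libraries compared alone, 1625 and 1519 at an adjusted p under 0.05, 492 and 276 with the fold threshold, and 615 to 920 and 501 to 783 over fits without 1 library, the lowest without aged GMP replicate 1. The young contrast gave 1352 and 2590 with the fold threshold. Aged MPP3 against MPP4 gave 608 and 489 with DESeq2, 199 and 177 in the libraries compared alone, 570 and 515 at an adjusted p under 0.05, 193 and 115 with the fold threshold, and 174 to 242 and 119 to 147 without 1 library (lowest without aged MPP4 replicate 1 and aged MPP3 replicate 2). The cause of these shifts was not tested, apart from the thresholds and the fewer libraries that define the settings.

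Deviations of same-numbered aged GMP and CLP libraries correlated at 0.03, and those of all pairs of groups at -0.38 to 0.34. With 2 libraries per group and the pools not stated, these values cannot show whether replicate numbers pair the samples. With the replicate number as a block the counts were 3381 and 3110 for aged GMPs against aged CLPs, 983 and 882 for the age difference, 3740 and 3908 for the young contrast and 325 and 271 for MPP3 against MPP4. With offsets for GC content and length and the replicate block they were 3372 and 3161, 1003 and 883, 3596 and 3860, and 375 and 328.

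Of the alternatives run for 267 gene results, 2927 kept the direction and the call, 98 lost the call, 3 gained it and 18 changed sign. Sign changes were found in genes that were not called. Junb was 0.07 with GC and length offsets, 0.08 with these and the replicate block, and -0.41 to 0.41 over fits without 1 library. Runx1 was -0.03 with both DESeq2 settings, -0.01 in the libraries compared alone and -0.08 to 0.09 without 1 library. With the GC and length offsets Btk was -0.01 and Prkdc 0.18, with or without the replicate block. Without 1 library Btk ranged from -0.00 to 0.19, Ikzf2 from -0.01 to 0.28, Fos from -0.16 to 1.14, Hba-a2 from -3.16 to 5.54, Bcl11b from -4.12 to 0.00 and Xbp1 from -0.20 to 0.06. Depth limited the lower group: a level under the floor of 3 counts could not be told from 0.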

Other observations

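Among the aged fractions, GMPs and CLPs were low in immediate early genes compared with stem cells and MPPs. The summed level of that list was 24100 and 27100 CPM in aged stem cells, between 13300 and 19100 CPM in the aged MPP fractions and 638 and 600 CPM in aged megakaryocyte-erythroid progenitors, against 2750 and 2400 CPM in GMPs and 4910 and 2490 CPM in CLPs. Gimap genes, higher in CLPs (385 and 416 CPM) than in GMPs (12.1 and 11.3 CPM), were highest in aged stem cells, at 717 and 746 CPM. Platelet and megakaryocyte genes were also highest there, at 1860 and 2070 CPM. Primary granule and oxidase genes summed to between 1840 and 3920 CPM in stem cells and MPPs, and to 368 and 270 CPM in megakaryocyte-erythroid progenitors. Aged CLPs had 2960 and 2680 CPM. These sums count oxidase genes such as Cybb, which was higher in CLPs than in GMPs, and so do not give the level of granule genes alone. Plasmacytoid dendritic genes were at 254 CPM or lower in each of the other 14 aged libraries. These values are given with no test.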
